A study of Saccharomyces cerevisiae with 2 samples.

Results

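The U2 spliceosomal RNA of Saccharomyces cerevisiae was examined for crosslinks of Dbp2p, a DEAD-box RNA helicase. The RNA is 1 gene of the 4336 gene names in the data. It was chosen by its name, SNR20, under which each replicate lists its positions, and it is annotated as LSR1. The gene lies on the minus strand of chromosome II from 680688 to 681862 (sacCer3) and gives an RNA of 1175 nt. The assay was iCLIP: UV irradiation crosslinks the protein to bound RNA, and the ends of the cDNAs made from that RNA mark where the crosslinks lie. The samples form 1 group of 2 replicates, whole cells of the MATa strain BTY140, which carries his3, leu2, met15 and ura3 deletion alleles and DBP2-HTBH:kanMX6. HTBH is a histidine and biotin tag for affinity purification, and it sits on the protein in both replicates. The cells were grown at 30 °C in YPD, a rich glucose medium, to an OD600 of about 1.0 and irradiated with UV. The series design speaks of a biological replicate and the labels say nothing further on separate cultures, so the spread given here is that between these 2 samples and may be technical. Neither an untagged strain nor an input sample was used as a background.

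U2 is the RNA of the small nuclear ribonucleoprotein that recognises the branch site of an intron. A short stretch near its 5' end pairs with the branch site, and neighbouring bases pair with the U6 RNA when the spliceosome becomes active. Stem-loops that follow are bound by splicing factor proteins, and a stem-loop near the 3' end carries the proteins Lea1 and Msl1. In budding yeast the RNA is much longer than in animals, and the long middle part is known to be dispensable for splicing. DEAD-box helicases open short RNA duplexes and remodel RNA-protein complexes.

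For each replicate the data give the listed nucleotides of a gene and, for each one, the share of that gene's signal. A share is therefore comparable along U2 and not between genes. In each replicate the listed shares of U2 were whole multiples of the lowest one, 0.578% and 0.0835%. They therefore read as counts of a unit, though the number of reads behind a unit is not given. U2 had 99 listed positions in replicate 1, the highest number of any of 2787 names, and 165 in replicate 2, the second highest of 3873 names. They were 1.14% of the 8666 positions of replicate 1 and 0.912% of the 18088 positions of replicate 2. All but 1 lay inside the annotated RNA. The exception, in replicate 1, was a T at nucleotide 1177, past the annotated end, with 0.578% of the signal. Together the replicates listed 239 nucleotides of the annotated RNA, 20.3% of its length, and 24 of them were listed in both.

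The bases below are those the data list for the first 120 nt, for a stretch at the 3' end and around the strongest nucleotide listed in both replicates. They are not the densest parts of U2: all 6 of nucleotides 372 to 377, for example, were listed in at least 1 replicate. They are read 5' to 3' as DNA letters, a capital marks a base listed in both replicates, a lower-case base was listed in 1 replicate, and n stands for a nucleotide with no listed position, whose base is not given here.
U2 nucleotides 1 to 60, chrII:681803-681862, minus strand: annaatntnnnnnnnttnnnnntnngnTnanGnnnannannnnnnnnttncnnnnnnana
U2 nucleotides 61 to 120, chrII:681743-681802, minus strand: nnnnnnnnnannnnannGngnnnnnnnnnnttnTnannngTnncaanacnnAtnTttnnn
U2 nucleotides 258 to 288, chrII:681575-681605, minus strand: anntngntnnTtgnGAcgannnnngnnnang
U2 nucleotides 1082 to 1156, chrII:680707-680781, minus strand: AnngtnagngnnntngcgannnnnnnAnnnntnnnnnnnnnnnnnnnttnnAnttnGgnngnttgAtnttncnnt
In the first 120 nt, 39 nucleotides were listed in either replicate and 7 in both. Between nucleotides 1082 and 1156 there were 30 letters and 5 capitals.

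Both ends of the U2 RNA held a larger share of the signal than of the length, and the middle a smaller one. The first 120 nt, which hold the branch-site pairing bases and the stem-loops after them, are 10.2% of the RNA. They held 27.7% of the signal in replicate 1 and 23.3% in replicate 2, a mean of 25.5% ± 3.14 (SD, n = 2). That was 2.72 and 2.28 times their share of the length. The middle, nucleotides 121 to 1075, is 81.3% of the RNA and held 60.7% and 61.5% of the signal, a mean of 61.1% ± 0.561 (SD, n = 2), or 0.747 and 0.757 times its share of the length. The last 100 nt, 8.51% of the RNA, held 11.0% and 15.2%, a mean of 13.1% ± 2.99 (SD, n = 2). No test between sections was run on the 2 samples, and the sections are described only.

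By number of positions per length the order of the sections, from the 5' domain over the 3' end to the middle, was the same as by signal per length. In the first 120 nt replicate 1 listed 19 positions, or 15.8 per 100 nt, and replicate 2 listed 27, or 22.5 per 100 nt. The middle had 65 and 117 positions, 6.81 and 12.3 per 100 nt. In the last 100 nt there were 14 and 21. The excess of the 3' end over its length rested on the bounds. In the last 80 nt, which are 6.81% of the RNA, replicate 1 had 10.4% of the signal and replicate 2 had 4.18%. Leaving out the positions at the lowest value gave 8.16% for the last 100 nt in replicate 1 and 15.2% in replicate 2.

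**Figure D1:**
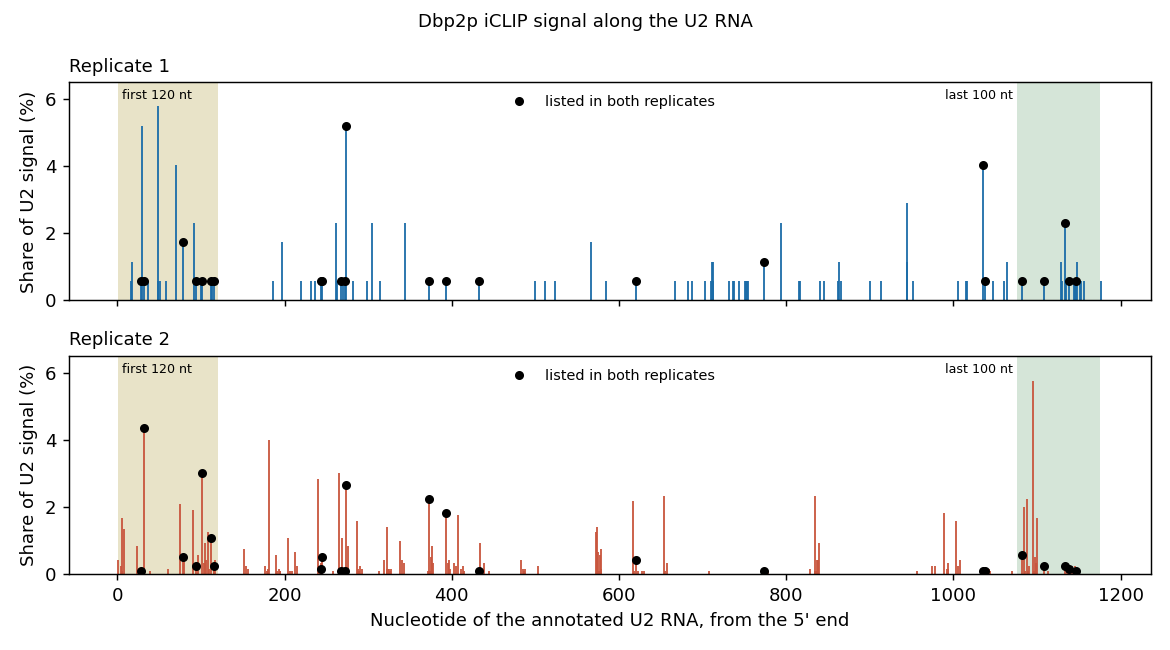
Share of the U2 signal in percent at each listed nucleotide, counted from the 5' end of the annotated RNA, for replicate 1 (top) and replicate 2 (bottom). Bars are single nucleotides, black dots mark the 24 nucleotides listed in both replicates, and shading marks the first 120 and last 100 nt. The highest bars are nucleotide 48 with 5.78% in replicate 1 and nucleotide 1095 with 5.76% in replicate 2.

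**Figure D2:**
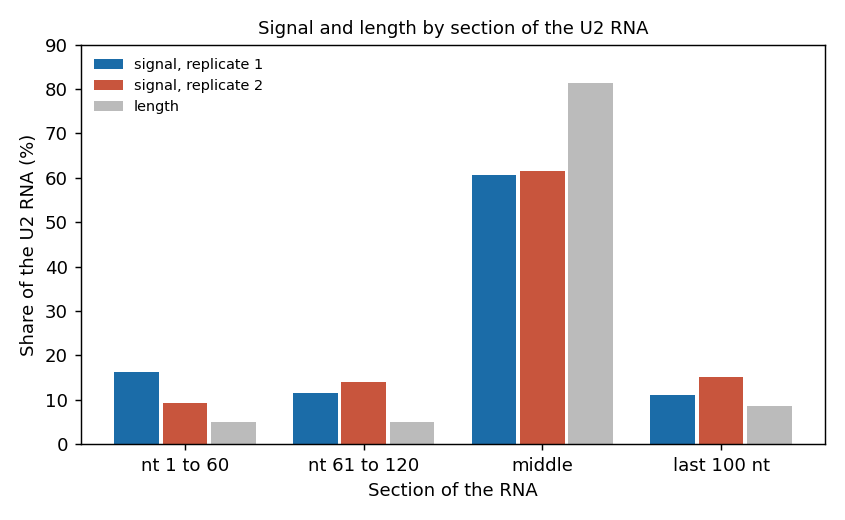
Share of the U2 signal in each replicate and share of the RNA's length, in percent, for 4 sections of the RNA. Both sections of the first 120 nt stand above their length in both replicates, and the middle stands below it at 60.7% and 61.5% against 81.3%.

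Within the 5' domain the replicates put the signal at different nucleotides. The first 60 nt, in which the branch-site pairing bases lie, held 16.2% of the signal over 10 positions in replicate 1 and 9.36% over 11 positions in replicate 2. Nucleotides 61 to 120 held 11.6% over 9 positions and 14.0% over 16. The share of the first 60 nt thus varied by more, 12.8% ± 4.83 (SD, n = 2), than that of the following 60 nt, 12.8% ± 1.69 (SD, n = 2). This spread moved with the positions that were counted. Without the strongest U2 position of each replicate, T48 in replicate 1 and T1095 in replicate 2, the share of the first 60 nt was 10.5% ± 0.788 (SD, n = 2). Only T48 lies in this section, in the replicate with the higher share, so the narrower spread does not show what caused it. Without the positions at the lowest value the share was 15.4% ± 8.49 (SD, n = 2), a wider spread. The exact pairing bases could not be placed, because the listed bases leave gaps there and no full U2 sequence was used.

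In replicate 1 the strongest nucleotide of the RNA was T48, with 5.78% of the signal, and A30 followed with 5.20%. Neither was listed in replicate 2. The strongest of the 5' domain in replicate 2 was G32, with 4.34% there and 0.578% in replicate 1. A30 and G32 are 2 nt apart, so the region just after nucleotide 28 carried a strong position in both replicates, though not at the same base. Of all U2 nucleotides 53.4% lie within 5 nt of a replicate 2 position, so such nearness alone says little. T28 itself was listed in both, at 0.578% and 0.0835%. Replicate 1 listed no position in the first 15 nt, whereas replicate 2 listed A1, A4, A5, T6 and T8, which together held 3.76%.

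Further into the domain, A70 held 4.05% in replicate 1 and was not listed in replicate 2, where A75 held 2.09%. G78 was listed in both, with 1.73% and 0.501%. From nucleotide 91 to 117 replicate 2 had a cluster of 13 positions, with neighbours at most 5 nt apart, that held 10.8% of the signal. Its strongest base was T101, with 3.01%, against 0.578% at the same base in replicate 1. The other bases of that cluster listed in both replicates were T94, A112 and T115. Of the 9 replicate 1 positions between nucleotides 61 and 120, 5 were listed in replicate 2 and all 9 lay within 5 nt of a replicate 2 position. In the first 60 nt the same numbers were 2 and 5 of 10. Replicate 2 listed 26.7% of nucleotides 61 to 120 and 18.3% of the first 60 nt. Most nucleotides of either stretch lie within 5 nt of a replicate 2 position, so the wider counts separate little. After the domain both replicates were empty from nucleotide 118 to 150.

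The middle part was not evenly covered, and its sections differed between the replicates. Nucleotides 121 to 360 are 20.4% of the RNA and held 21.4% of the signal in replicate 1 and 27.7% in replicate 2. The other sections of the middle each held less than their share of the length in both replicates. Nucleotides 361 to 600 held 5.78% over 8 positions in replicate 1 and 17.4% over 34 positions in replicate 2. Nucleotides 601 to 840 had 21 positions in each replicate, with 15.6% and 10.6%. Between nucleotides 841 and 1075 there were 18 positions with 17.9% in replicate 1 and 15 with 5.85% in replicate 2. The signal of replicate 2 thus lay further to the 5' side of the middle than that of replicate 1.

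A273 was the strongest nucleotide of the middle in replicate 1, with 5.20%, and held 2.67% in replicate 2. It is the one nucleotide that ranked among the 10 strongest in both replicates, the second in replicate 1, where A30 had the same share, and the 7th in replicate 2. Around it, from nucleotide 261 to 273, replicate 1 had a cluster of 6 positions with 9.83% of the signal. In replicate 2 the cluster ran from 265 to 276, with 8 positions and 7.94%. T268 and G272 in this stretch were also listed in both, at 0.578% and 0.0835% each. The window of nucleotides 251 to 300 held 11.0% and 10.3%, the closest pair of values among the 4 windows of 50 nt that held over 9% of the signal in either replicate.

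Other strong nucleotides of the middle were listed on 1 side or were weak on the other. T181 held 4.01% in replicate 2, T265 held 3.01% and T240 held 2.84%, and none of these was listed in replicate 1. T1036 held 4.05% in replicate 1 and 0.0835%, the lowest value, in replicate 2. A373 and G393 were the reverse case, with 2.26% and 1.84% in replicate 2 and 0.578%, the lowest value, in replicate 1. From nucleotide 709 to 772 replicate 1 had 12 positions with 8.09% of the signal where replicate 2 had none. From 840 to 955 replicate 1 had 10 with 9.25%, and replicate 2 again had none. Stretches without a position in either replicate were longest at nucleotides 525 to 565, with 41 nt, and 446 to 482, with 37 nt.

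At the 3' end the replicates used neighbouring parts of the last 100 nt. In replicate 2 nucleotides 1082 to 1100 formed a cluster of 11 positions with 13.6% of the signal, led by T1095 with 5.76%, the strongest nucleotide of the RNA there. A1088 held 2.26% and G1085 held 2.01%. Replicate 1 listed A1082 from this cluster, at 0.578%, and nothing between 1083 and 1107. Its own 3' signal lay from 1129 to 1156, in clusters of 5 and 7 positions with 5.20% and 4.62%, and was led by A1133 with 2.31%. Replicate 2 also listed A1133, G1138 and A1147, with 0.251%, 0.167% and 0.0835%. The last listed nucleotide inside the RNA was 1156 in replicate 1 and 1150 in replicate 2.

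The band from 15 to 59 nt before the 3' end showed the same difference. In U2 it held 9.83% of the signal in replicate 1 and 1.25% in replicate 2, where its share of the length is 3.83%. Small nucleolar RNAs (snoRNAs), most of which guide modification of ribosomal RNA, ranged in this band from 5.26% to 100% in replicate 1, with a median of 81.2% over 76 RNAs. In replicate 2 they ranged from 0% to 100%, with a median of 30.3% over 73 RNAs. The band was taken because it had been described earlier for snoRNAs, so their high share is no independent comparison for U2. The band is also a larger part of these shorter RNAs, so the shares are not per length. The U1 RNA SNR19, the next longest spliceosomal RNA with 568 nt, held 41.4% and 2.73% there, where the band is 7.92% of its length.

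At the bounds used here the replicates were close for the large sections of U2, but not at all bounds. With the first 100 and the last 80 nt set apart, the middle held 63.6% of the signal in replicate 1 and 80.5% in replicate 2, and the first 100 nt held 25.4% and 15.3%. Of the 99 positions of replicate 1, 24 were at a nucleotide listed in replicate 2, which is 24.2% of them and 14.5% of the replicate 2 positions. Replicate 2 listed 14.0% of all U2 nucleotides. In the other small stable RNAs together 16.7% of replicate 1 positions were listed in replicate 2, and over all genes the share was 7.52%. These shares move with how densely replicate 2 covers a gene. Dividing the shared percentage by the percentage of nucleotides listed in replicate 2 gave 1.73 for U2, 2.60 for the U5 RNA SNR7-L, 2.46 for the U4 RNA SNR14, 1.68 for the U1 RNA SNR19, 1.38 for NME1 and 0.412 for the U6 RNA SNR6. U2 ranked 26th of 79 RNAs by this ratio, and the snoRNA median was 1.36. The snoRNA values ran from 0 to 16.6, the highest from SNR33 with 1 replicate 2 position, so lying within this range says little. Among snoRNAs with at least 50 replicate 2 positions the ratio was 1.61 for SNR17A, 2.33 for SNR30 and 1.95 for SNR37. It was 2.67 for SNR17B, 1.64 for SNR86 and 1.24 for SNR190. By this ratio U2 lay among these RNAs.

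By section of U2, shared positions were 7 of 19 in the first 120 nt (36.8%), 12 of 65 in the middle (18.5%) and 5 of 14 in the last 100 nt (35.7%), where replicate 2 listed 22.5%, 12.3% and 21.0% of the nucleotides. Within 1 nt of a replicate 2 position lay 36.4% of the replicate 1 positions and 29.0% of all U2 nucleotides, and within 5 nt 60.6% and 53.4%. At such a distance most of the RNA is near a position, so the wider tolerance separates little. The 24 shared nucleotides held 25.4% of the signal in replicate 1 and 19.2% in replicate 2, and their shares in the replicates had Pearson's r = 0.14 and Spearman's rho = -0.01 across the 24 nucleotides. Of the 12 nucleotides with at least 2.31% in replicate 1, 3 were listed in replicate 2 (A273, T1036 and A1133). Of the 11 with at least 2.26% in replicate 2, 4 were listed in replicate 1 (G32, T101, A273 and A373).

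Across 24 windows of 50 nt, the last of 25 nt, the shares of signal had Pearson's r = 0.25 and Spearman's rho = 0.11. Across 12 windows of 100 nt r was 0.40 and rho 0.18. These are descriptions across windows of 1 RNA, which share its sequence and each replicate's library. The windows that departed most were nucleotides 1051 to 1100, with 2.31% in replicate 1 and 13.7% in replicate 2, and 1101 to 1150, with 8.67% and 1.59%.

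**Figure D3:**
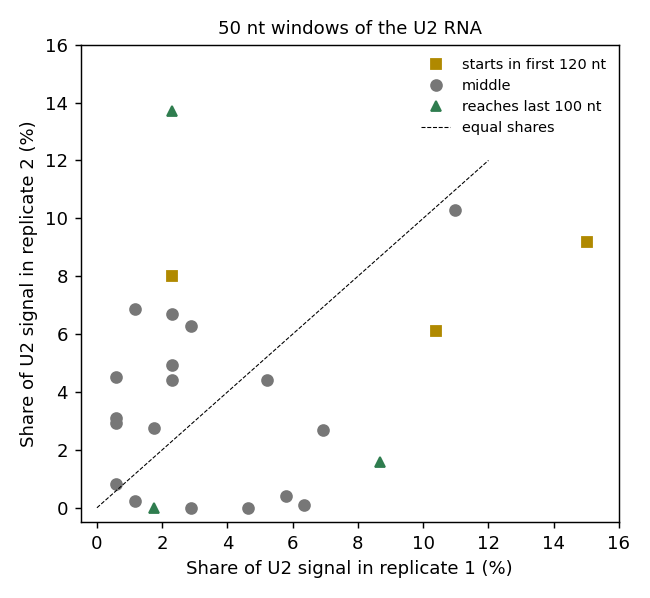
Share of the U2 signal in percent in replicate 2 against replicate 1 for 24 windows of 50 nt, marked by section, with a dashed line of equal shares. The window with 11.0% and 10.3% lies close to the line, and the window with 2.31% and 13.7% lies far above it.

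The signal of U2 was spread over many weak positions. Its strongest nucleotide held 5.78% and 5.76% of the signal. In replicate 1 no other of the 82 listed small stable RNAs had a weaker strongest position, and in replicate 2 U2 ranked 78th of 79. The snoRNAs, with fewer positions, had medians of 19.2% and 34.8%. The shares of a gene add up to 1, so this rank goes with the number of positions, which was highest in U2. Long RNAs with many positions were closer to U2: SNR17A had 12.6% and 5.70%, SNR30 10% and 7.74%, and SNR19 12.1% and 7.92%. The 10 strongest nucleotides of U2 held 36.4% and 32.6% of its signal. In replicate 1, 75 of the 99 positions had the lowest U2 value, 0.578%, and held 43.4% of the signal. The lowest value of replicate 2 was 0.0835%, with 50 of the 165 positions and 4.18% of the signal. The replicates thus differed in how finely the signal of U2 was resolved, and the part of this in the nucleotides listed in only one of them was not tested.

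Per length, U2 was within the range of the other small stable RNAs. It had 8.34 positions per 100 nt in replicate 1 and 14.0 in replicate 2, a mean of 11.2 ± 4.03 (SD, n = 2). That ranked 66th and 22nd of 83 annotated small RNAs. The snoRNA medians were 15.7 and 8.18 per 100 nt. U1 had 5.81 and 14.4, U4 14.4 and 10.6, U5 15.9 and 13.6, U6 28.6 and 15.2 and NME1, the RNA of RNase MRP, 7.65 and 11.2. In U2, U1 and NME1 replicate 2 gave the higher density, and in U4, U5 and U6 replicate 1 did. U2 is the longest of the 83, ahead of SNR86 with 1004 nt. No abundance of the RNAs was used here, so a density is not binding per molecule.

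**Figure D4:**
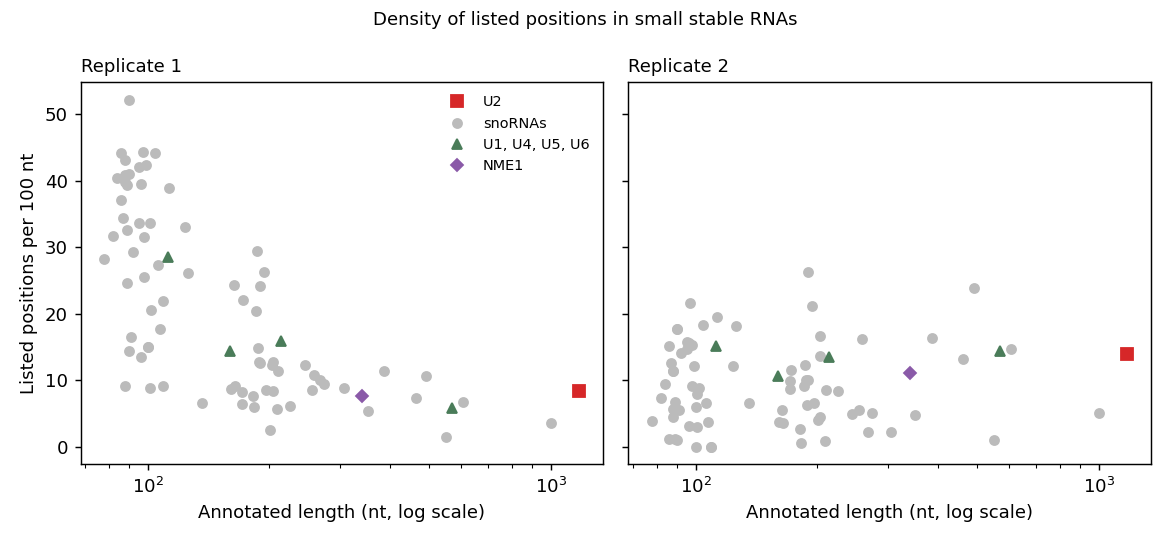
Listed positions per 100 nt against annotated length (log scale) in replicate 1 and replicate 2, with a point for each small stable RNA. U2, the red square at 1175 nt, stands at 8.34 and 14.0, within the range of the snoRNAs in both panels.

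The first 10.2% of the length, compared across RNAs, held 27.7% and 23.3% of the U2 signal and 20.7% and 13.7% of the U1 signal. It held 2.08% and 0% in U4, 0% and 0.529% in U5, and 1.95% and 20% in U6. The snoRNA medians were 3.81% and 2.57%, with a range up to 54.1% in replicate 1 and 100% in replicate 2. By this share U2 ranked 4th of 82 and 21st of 79. In many snoRNAs this stretch is only some 10 nt long, against 120 nt in U2, so the medians and ranks rest in part on very short stretches.

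Genes nearest to U2 by their numbers of positions in the 2 replicates, by Euclidean distance of log2(positions + 0.5), were SNR17A, the U3 RNA (52 and 117 positions, distance 1.05), PDC1 (42 and 135, 1.26), TDH3 (36 and 130, 1.49), SNR30 (41 and 89, 1.54) and ENO2 (35 and 101, 1.65). PDC1, TDH3 and ENO2 encode abundant enzymes of fermentation and glycolysis. SNR17A, TDH3 and ENO2 have near-identical copies elsewhere in the genome, so the assignment of their positions is uncertain. Likeness over only 2 samples of 1 group says no more than that these genes also had many positions in both.

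Neighbouring positions of U2 formed clusters, and in replicate 2 the strongest position stood at the 5' end of its cluster in 14 of 26. Clusters were runs of at least 3 positions with neighbours no more than 5 nt apart. Replicate 2 had 27 in U2, of which 26 had a single strongest position. It was the 5'-most position in 53.8%, an inner one in 10 and the 3'-most in 2. In replicate 2 the 5'-most share was 62.8% in the other small stable RNAs and 86.1% in protein-coding genes. Replicate 1 had 10 clusters in U2 and 6 with a single strongest position, which was 5'-most in 1, against 17.9% of clusters in the other small stable RNAs and 56.8% in protein-coding genes. The U2 share of replicate 2 was 67.9% when clusters joined neighbours within 3 nt and 40.9% when they joined neighbours within 10 nt. Among clusters of at least 5 positions it was 46.7% (7 of 15). The 5'-most position of clusters in U2 included T617, with 2.17% before 5 weaker positions, and T240, with 2.84% before 4. In A273's cluster of replicate 2 the 5'-most position, T265, was the strongest.

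T was the commonest listed base of U2, which as RNA is uridine. It made up 44 of 99 positions in replicate 1 (44.4%) and 63 of 165 in replicate 2 (38.2%), a mean of 41.3% ± 4.43 (SD, n = 2), and 46.2% and 40.7% of the signal. A followed with 29.3% and 25.5% of positions, G with 21.2% and 24.2%, and C with 5.05% and 12.1%. In the other small stable RNAs T was 37.3% and 34.1% of positions and A 37.2% and 34.5%. In protein-coding genes T was 31.4% and 29.3% and A 49.0% and 39.5%. Of the 24 U2 nucleotides listed in both replicates, 9 were A, 8 were T, 5 were G and 2 were C. The base composition of all 1175 nt was not used here.

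Messenger RNAs of the proteins that build U2 snRNP or act on it had a median of 0 positions in replicate 1 and 1 in replicate 2, the same as all protein-coding genes. Of 26 such genes, 8 had a position in replicate 1 (30.8%) and 16 in replicate 2 (61.5%), where 45% and 63.2% of 6002 protein-coding genes had one, and 7 genes had one in both. No test was made on this list. Core U2 proteins gave 3 and 6 of 11, among them PRP9 of the SF3a complex with 1 and 2 positions and HSH155 of the SF3b complex with 0 and 2. Sm proteins, which form a ring on the RNA, gave 0 and 3 of 7, each with 1 position. Of 8 assembly factors and helicases, 5 and 7 were listed. The highest numbers were those of BRR2, the helicase that unwinds the U4 and U6 pair (3 and 10 positions), SUB2, a DEAD-box helicase of early splicing and mRNA export (5 and 5), and, with equal sums, PRP2, which acts before the first splicing step (3 and 2), and PRP5, the DEAD-box helicase that acts on U2 at the branch site (1 and 4). These numbers are not per length: BRR2, with 6492 nt, is the longest gene of the list, and SUB2 has 1341 nt. The Sm genes have 234 to 591 nt. No messenger RNA on the list had more than 10 positions in a replicate, beside the 99 and 165 of U2 itself.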

How the data were processed

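Dbp2p iCLIP was analysed in 2 replicates of 1 group. The authors deposited a table of nucleotides for each replicate, and each deposited value is a fraction of the signal of its gene: the file headers call the values normalized counts, and for every listed gene they add up to 1 (tolerance 1e-06), with none below 0. Per the submitters' processing notes, CASAVA and TopHat were used with the build sacCer3. Collapsing of repeated cDNAs, multiple mapping and filters are not given in the sources used here, and the depth of the libraries is unknown.

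SNR20 was matched by position to LSR1 in the RefSeq annotation table of R64, whose coordinates are those of sacCer3. Nucleotides were counted from its 5' end, and coordinates are 1-based. The bounds of 120 and 100 nt, windows of 50 nt, the protein list and the rule for named genes and nucleotides (the strongest of each replicate, ties included, the other spliceosomal RNAs, the 5 nearest genes and the 3 proteins of the list with most positions) were chosen with earlier results of these data known. The first 60 nt, the sections of the middle, the clusters and further nucleotides in the text were added after the values were seen. No test was run on the 2 samples of 1 group. The code was tested on simulated positions. Python 3.11.15, numpy 2.4.6, pandas 2.3.3, scipy 1.17.1 and matplotlib 3.10.9 were used.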

Additional observations from a re-analysis of the deposited data

How the results depend on the processing

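Of 49 recomputed values over 10 results other than the window correlation, 32 moved by no more than a set yardstick and 17 moved further. The yardstick was the spread between the replicates. For the share of replicate 1 positions also listed in replicate 2 and for the share of clusters it was the exact 95% binomial interval. For the number of protein genes it was 1.5 times. The binomial interval takes positions or clusters of 1 RNA as independent, which neighbouring ones may not be. Values without 1 replicate are among the 49, and with 2 replicates they cannot leave the spread between the replicates. With bounds at the first 100 and last 80 nt the mean shares of signal were 20.4%, 72.1% and 7.29% for the 5' domain, middle and 3' end, and with 150 nt at each end the middle held 57.4% and the 3' end 16.8%. By number of positions the 5' domain had 17.8% and the middle 68.3%. Without the strongest position the middle had 64.8%, and without the positions at the lowest value it had 58.5% and the 5' domain 29.8%. In all of these alternatives the 5' domain stayed above its share of the length in each replicate and the middle below it. The mean number of positions per 100 nt was 3.91 when positions within 5 nt were counted once and 5.91 without those at the lowest value. Shared positions were 36.4% of replicate 1 within 1 nt and 60.6% within 5 nt, beside 29.0% and 53.4% of all U2 nucleotides. Without those at the lowest value in either replicate they were 12.5% (3 of 24), where replicate 2 then listed 9.79% of the nucleotides. They were 14.5% of replicate 2, where replicate 1 listed 8.34% of the nucleotides. The window correlation, which has no such spread, was 0.20 with 25 nt windows, 0.40 with 100 nt windows, 0.10 by positions and 0.26 without the strongest position. With at least 2 positions required, the mean number of U2 protein genes was 6, against 12. Leaving out either replicate leaves the value of the other, which is printed throughout; the mean share of the 5' domain was then 23.3% to 27.7%. The cause of these differences was not tested. The planned window around the branch-site pairing bases was not run, since the sequence that would place them was not used here. No paired analysis was possible because the replicates form 1 group. The values move in coarse steps, most of all in replicate 1, where 75 of 99 positions share the lowest value. This, and the unknown number of reads behind a unit, limits what single nucleotides show.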
